A study of Mus musculus with 14 samples.

Results

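The miRNAs described here are miR-132-3p, miR-212-3p, miR-153-3p, miR-129-5p (from 2 hairpins), miR-184-3p and miR-137-3p, which are best known from neurons and neuroendocrine cells, in crypt cells of the mouse small intestine. They were chosen by name, at their annotated start position, as mmu-mir-132-3p, mmu-mir-212-3p, mmu-mir-153-3p, mmu-mir-129-1-5p, mmu-mir-129-2-5p, mmu-mir-184-3p and mmu-mir-137-3p, and make up 7 of the 2030 miRNA entries and of the 534 annotated-start entries measured. Small RNA was sequenced from small intestinal cells of C57BL/6J mice that carry the Sox9eGFP reporter, a transgene whose fluorescence tracks expression of the transcription factor Sox9. The groups were High (3 libraries), Negative (3 libraries), Sublow (3 libraries) and Low (3 libraries), named for their eGFP level, and Non-sorted cells (2 libraries). All 5 groups carry the reporter by their titles, no treatment is named, and age and sex are not stated in the labels. The question the design poses is how the miRNA content of crypt subpopulations differs.

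In this reporter mouse, High cells are known for their endocrine and tuft character, Low cells for crypt-base stem cells, Sublow cells for dividing progenitors and Negative cells for differentiated cells. These names describe enriched mixtures sorted on one fluorescent signal, and the reporter marks the level of Sox9 activity, not a cell type. A miRNA guides the Argonaute complex to messenger RNAs that pair with its seed, the bases from position 2 to position 8, and lowers the output of those messages. Neurons and endocrine cells of the gut both store signals in vesicles and release them by regulated exocytosis, and several miRNAs first described in brain are also made in pancreatic islets. miR-132 and miR-212 are induced by neuronal activity through the factor CREB. miR-153 is enriched in brain and lies in an intron of Ptprn2, which encodes a protein of dense-core secretory vesicles. miR-129 is enriched in brain, where it represses a voltage-gated potassium channel. miR-184 is abundant in brain, lens and cornea and has been studied in mouse pancreatic beta cells, where it represses Ago2. miR-137 acts in neuronal differentiation and represses Ezh2 in mouse neural stem cells.

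The mature sequences are shown because the seeds decide which entries can be read as one family. They were taken from RefSeq (GRCm38.p6), in which all 7 entries were matched. The seed is in capitals.
miR-132-3p: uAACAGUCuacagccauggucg
miR-212-3p: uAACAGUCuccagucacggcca
miR-153-3p: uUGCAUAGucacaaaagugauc
miR-129-5p: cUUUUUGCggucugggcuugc
miR-184-3p: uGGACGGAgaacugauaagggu
miR-137-3p: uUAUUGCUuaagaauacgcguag

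The 7 entries hold 6 distinct mature sequences and 5 distinct seeds. miR-132-3p and miR-212-3p share the seed AACAGUC and are identical over their first 9 bases and at 17 of 22 positions. No other mouse miRNA in the RefSeq table carries any of the 5 seeds. All coordinates here are those of RefSeq's GRCm38.p6, whereas the values were made on mm9. The 2 mature forms of one family lie close together, miR-132-3p at chr11:75173723-75173744 and miR-212-3p at chr11:75173443-75173464 on the plus strand, with 203 bases between their hairpins, both in an intron of the noncoding gene 1700016P03Rik. miR-153-3p lies at chr12:117250860-117250881 on the plus strand, in an intron of Ptprn2. miR-184-3p lies at chr9:89802263-89802284 on the minus strand, and the annotation places no other gene there. miR-137-3p lies at chr3:118433901-118433923 on the plus strand, in an exon of the noncoding transcript Gm26871. miR-129-5p is encoded in an exon of the long noncoding RNA Gm3294 (chr6:29022624-29022644, plus strand) and in an intron of Mir670hg (chr2:94241419-94241439, minus strand).

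The 2 hairpins of miR-129-5p are shown because they yield one and the same mature sequence, in capitals, from different surroundings.
Mir129-1: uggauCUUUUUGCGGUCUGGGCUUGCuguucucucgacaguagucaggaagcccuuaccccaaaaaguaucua
Mir129-2: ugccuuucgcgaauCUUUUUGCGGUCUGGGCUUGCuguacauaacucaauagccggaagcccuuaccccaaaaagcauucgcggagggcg

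The values are RPM over miRNA entries, reads scaled to a total of 1000000 per library, as the authors deposited them. Depth, estimated from the steps between low values, was 1.89 to 16.4 M reads (M, 1000000), lowest in High replicate 3. The estimate took the smallest listed value of every library to stand for about 10 reads, and settled at 10.02 to 10.9 reads. On that assumption a 0 means fewer than about 10 reads and not absence. That limit was 0.76 to 5.55 RPM in High, 0.65 to 2.10 RPM in Negative, 0.62 to 2.41 RPM in Sublow, 1.32 to 2.60 RPM in Low and 2.13 to 2.93 RPM in Non-sorted libraries. The list of 8 epithelial miRNAs (the miR-200 family, miR-192, miR-194 and miR-215) summed to 197246 to 230584 RPM in High, 558463 to 559871 RPM in Negative, 424333 to 437263 RPM in Sublow, 215198 to 244726 RPM in Low, and 490391 and 582433 RPM in Non-sorted libraries. Of these, miR-215-5p averaged 340410 RPM in Negative and 40381 RPM in High libraries, which leaves less of the fixed total to other entries in Negative libraries. miR-194-5p likewise averaged 109618 RPM in Negative and 6746 RPM in High libraries. The others on this list had higher means in High than in Negative libraries. These were 27476 and 8779 RPM for miR-200a-3p, 11434 and 3352 RPM for miR-200b-3p, and 21067 and 11422 RPM for miR-200c-3p. They were 3596 and 889 RPM for miR-141-3p, 5389 and 1886 RPM for miR-429-3p, and 102466 and 82725 RPM for miR-192-5p. Of the mesenchymal and muscle miRNAs, miR-145-5p was listed at 0 in all 14 libraries, whereas miR-143-3p, with group means of 9.26 to 38.2 RPM, and miR-1a-3p, with 7.56 to 29.4 RPM, were listed in all 14. A group of 7 libraries (1 High, 2 Negative, 1 Sublow, 1 Low, 2 Non-sorted) lists miR-295-3p, of the embryonic stem cell miR-290 cluster, at 395 to 928 RPM, and the other 7 list it at 0. Whether replicates stem from different animals is not stated, so the p-values reflect the spread among the sequenced libraries, which may be technical.

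All 6 mature miRNAs had the same order of group means among the sorted cells, which from highest to lowest was High, Low, Sublow and Negative. Summed over the 6, with 1 copy of miR-129-5p, they took 523 to 639 RPM in High, 2.93 to 4.0 RPM in Negative, 57.3 to 71.9 RPM in Sublow, 319 to 455 RPM in Low, and 26.5 and 59.6 RPM in Non-sorted libraries. The sorted groups did not overlap in this sum. miR-184-3p made up 51.4% of the sum in High cells, 57.0% in Sublow cells and 61.3% in Low cells (means of 3 libraries). These are modest members of the miRNA pool. Among the 406 annotated-start entries listed in High cells, miR-184-3p ranked 87th by mean level, miR-132-3p 110th, miR-153-3p 132nd, miR-129-1-5p 170th, miR-129-2-5p 176th, miR-212-3p 194th and miR-137-3p 220th. In sorted cells measured in bulk, fewer cells of a type and less RNA per cell cannot be told apart.

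**Figure D1:**
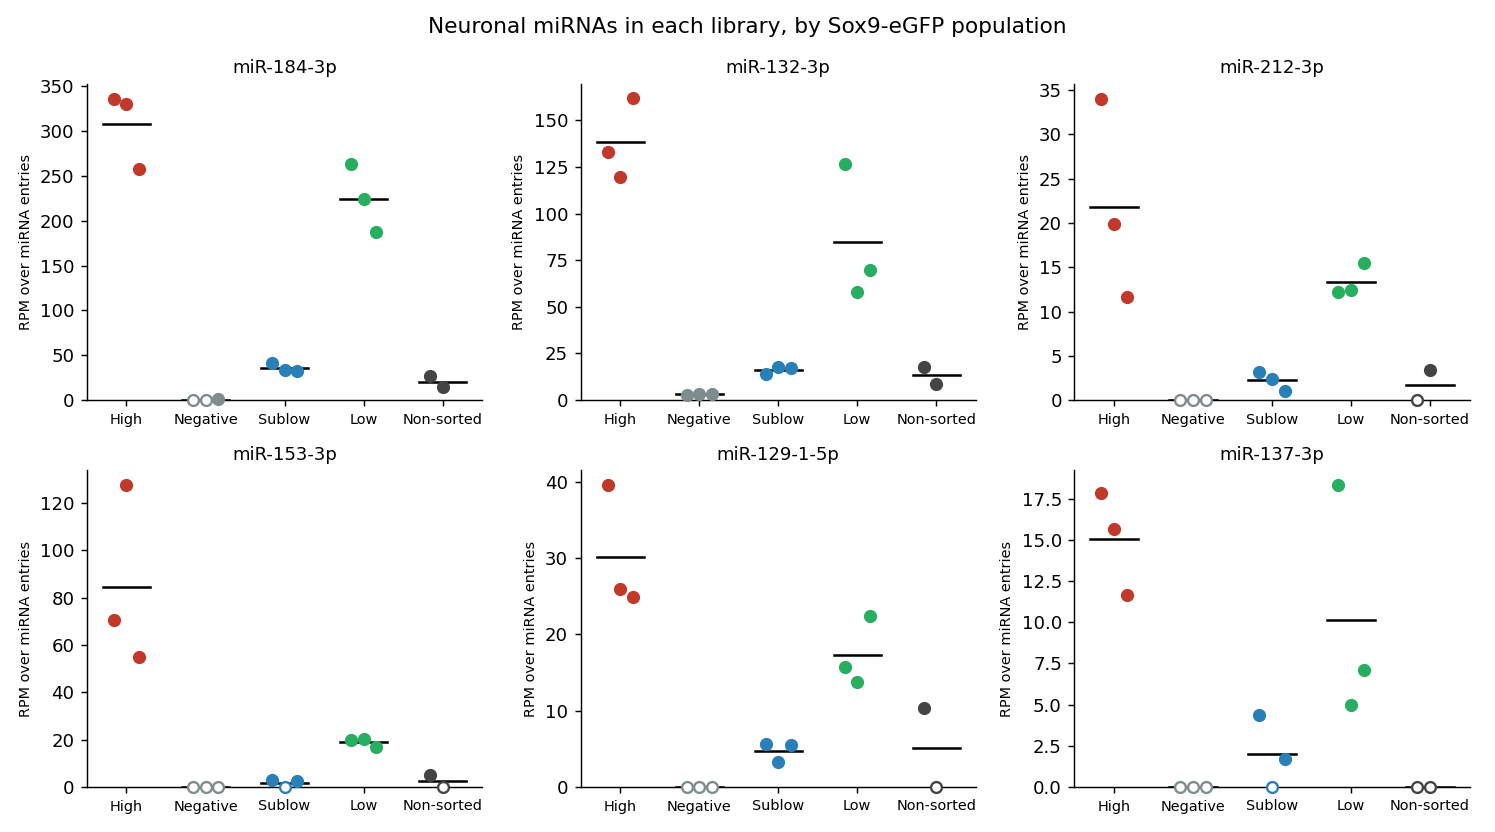
Level of each miRNA in every library, in RPM over miRNA entries on a linear axis that differs between panels; points are libraries, open points are values listed at 0, and bars are group means with 0 entered for those. Every panel is highest in High or Low libraries, and the Negative libraries sit at or near 0, with miR-132-3p at 2.93 to 3.46 RPM.

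miR-184-3p had the highest mean of the 6 in every group but Negative cells, where it averaged 0.31 RPM and miR-132-3p 3.15 RPM. It had 336, 329.8 and 258 RPM in High libraries, 0, 0 and 0.94 RPM in Negative libraries, 41.4, 34.0 and 32.4 RPM in Sublow libraries, 263, 224 and 188 RPM in Low libraries, and 26.4 and 14.5 RPM in Non-sorted libraries. High and Low libraries overlapped, while the Sublow libraries lay between them and the Negative libraries without overlap. The only Negative library to list it, replicate 3, was the deepest of its group, and its 0.94 RPM is under the listing limits of 1.99 and 2.10 RPM in the other two, so these 3 libraries cannot be ordered.

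miR-132-3p was listed in all 14 libraries, on an estimated 14.97 to 1790.2 reads. It had 133, 119.8 and 162 RPM in High libraries, 2.93, 3.46 and 3.06 RPM in Negative libraries, 14.2, 17.7 and 17.2 RPM in Sublow libraries, 127, 57.7 and 69.6 RPM in Low libraries, and 17.9 and 8.65 RPM in Non-sorted libraries. Since none of its values is 0, it is the one member for which Negative cells can be compared as a ratio. The mean in High cells was 43.9 times that in Negative cells, and the mean in Negative cells was 0.193 times that in Sublow cells and 0.0372 times that in Low cells. Low replicate 1 reached into the range of the High libraries, while the other 2 Low libraries were below it.

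miR-212-3p, which shares the seed and the locus of miR-132-3p, was scarcer. It had 34.0, 19.9 and 11.6 RPM in High libraries, 0 in all 3 Negative libraries, 3.23, 2.43 and 0.99 RPM in Sublow libraries, 12.2, 12.4 and 15.5 RPM in Low libraries, and 0 and 3.35 RPM in Non-sorted libraries. The High and Low libraries overlapped, and both were above every Sublow library. Per 100 of miR-132-3p in the same library, miR-212-3p came to 7.19 to 25.6 in High, 5.76 to 22.7 in Sublow and 9.64 to 22.2 in Low libraries, ranges that overlap throughout.

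miR-153-3p was the member with the widest gap between High and Low cells. It had 70.5, 127 and 55.0 RPM in High libraries, 0 in all 3 Negative libraries, 3.05, 0 and 2.27 RPM in Sublow libraries, 19.7, 20.1 and 16.7 RPM in Low libraries, and 4.95 and 0 RPM in Non-sorted libraries. Every High library was above every Low library, and the mean in High cells was 4.48 times that in Low cells. The library at 0 in the Sublow group, replicate 2, had a listing limit of 2.41 RPM, close to the values of the other two.

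miR-129-5p is counted as 2 entries, one for each hairpin. The entry of Mir129-1 had 39.6, 26.0 and 24.9 RPM in High libraries, 0 in all 3 Negative libraries, 5.58, 3.20 and 5.53 RPM in Sublow libraries, 15.8, 13.8 and 22.4 RPM in Low libraries, and 10.3 and 0 RPM in Non-sorted libraries. The High libraries were above the Low libraries, and these above the Sublow libraries, without overlap. The entry of Mir129-2 was identical in 6 of the 10 libraries that list both and differed by 6.16 to 14.4 percent in the other 4. Reads of the mature sequence printed above cannot be assigned to one hairpin, so the 2 entries are one measurement and not a repeat of it.

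miR-137-3p had the lowest mean of the 6 in High and Low cells, with an estimated 19.98 to 240.3 reads where it was listed. It had 17.9, 15.7 and 11.6 RPM in High libraries, 0 in all 3 Negative libraries, 4.39, 0 and 1.67 RPM in Sublow libraries, 18.3, 4.96 and 7.08 RPM in Low libraries, and 0 in both Non-sorted libraries. Low replicate 1 was the highest of all 14 libraries, so the High and Low groups overlapped, whereas the other 2 Low libraries were below every High library.

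The comparisons were made with limma on log2(RPM + 1) in one model over all 14 libraries, with p-values adjusted over the 588 entries that had at least 10 RPM in at least 3 libraries. This scale understates the change of low values, and a difference against a group listed at 0 depends on the 1 that was added. All 7 entries passed that filter, but for miR-212-3p, miR-153-3p and miR-137-3p every value of at least 10 RPM lay in a High or Low library, and for both copies of miR-129-5p every one but the 10.3 RPM of a Non-sorted library. For these 5 entries a difference from the other groups was favoured by the filter itself, and the counts of members below are descriptions. Among the 4 sorted populations all 7 differed by the moderated F test, against 72.3% of all tested entries. With the lane code of the labels as a term 5 of the 7 did, a count that the 72.3%, from the model without that term, does not match. The F statistic was 292 for miR-184-3p (limma adjusted p = 2.05e-09) and 102 for miR-132-3p (limma adjusted p = 1.78e-07), and 15.9 for miR-137-3p (limma adjusted p = 0.000525), the lowest of the 7.

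High against Low cells addresses what separates the cells with the strongest reporter from the stem cell fraction. miR-153-3p was higher in High cells, by 2.02 on the log2 scale (SE 0.67, limma adjusted p = 0.0432), higher in 3 of 3 High libraries than in any Low library. It was the only member called, 1 of 7, where 7.99% of all tested entries were called higher and 20.1% lower. The call rests on the full set of libraries: it was lost when any of 10 libraries was left out (every High, Low and Negative library, and Sublow replicate 3), with adjusted p up to 0.144 without High replicate 2. It was also lost with the lane as a term (2.31, limma adjusted p = 0.0774), with a pseudocount of 0.1 (limma adjusted p = 0.349) and without the filter (limma adjusted p = 0.0976). The other differences were positive but did not pass: 0.77 for miR-132-3p (SE 0.32, limma adjusted p = 0.0948), 0.46 for miR-184-3p (SE 0.30, limma adjusted p = 0.291), 0.76 for miR-129-1-5p (SE 0.69, limma adjusted p = 0.458), 0.70 for miR-137-3p (SE 0.65, limma adjusted p = 0.471) and 0.56 for miR-212-3p (SE 0.59, limma adjusted p = 0.533). miR-132-3p passed without Low replicate 1 (1.10, limma adjusted p = 0.0217) and after median-ratio rescaling (1.09, limma adjusted p = 0.0200). The High libraries did not overlap with the Low libraries for 3 entries, miR-153-3p and both copies of miR-129-5p, where 16.3% of all tested entries lay wholly above. The median difference was 0.73 over the 7 and -0.11 over all tested entries.

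The labels carry a lane code, and 2 High and 2 Low libraries share the code L000. This code comes with the word Combo and may stand for merged lanes, so these libraries may not have shared a lane. Within the code L000 the differences were 2.31 for miR-153-3p, 1.35 for miR-137-3p, 0.98 for miR-132-3p, 0.86 for miR-212-3p, 0.83 for miR-129-1-5p and 0.70 for miR-184-3p on the log2 scale, all positive. Markers of blood, mesenchymal, muscle and endothelial cells are given for the same comparison, and none of those tested passed in it. The 7 blood miRNAs, with 6 matched in the table, summed to 11.1 to 67.3 RPM in High and 42.4 to 213 RPM in Low libraries, which overlap. Of the 3 tested, miR-155-5p was nearest to the threshold (limma adjusted p = 0.0671), and miR-142-3p and miR-144-3p were listed at 0 in every library. The 7 mesenchymal and muscle miRNAs, with 5 matched, summed to 31.5 to 53.5 RPM in High and 33.3 to 95.7 RPM in Low libraries, which also overlap. Of those tested, miR-143-3p came nearer to the threshold than miR-155-5p (difference -1.68, SE 0.61, limma adjusted p = 0.0604). The difference of miR-1a-3p was 0.37 (SE 0.31, limma adjusted p = 0.416). The 2 endothelial miRNAs summed to 10.2 to 17.1 RPM in High, 0.81 to 5.09 RPM in Negative, 0.98 to 5.96 RPM in Sublow and 0 to 12.6 RPM in Low libraries. Of these miR-126-3p was listed in 2 libraries, both High, and miR-126-5p did not pass (difference 1.11, SE 0.94, limma adjusted p = 0.425). The part of these cells in the result was not tested.

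Sublow against Low cells compares dividing progenitors with the stem cell fraction. In Sublow cells 5 of the 7 entries were lower, where 24.3% of all tested entries were. miR-184-3p fell by 2.61 (SE 0.30, limma adjusted p = 5.54e-05) and miR-132-3p fell by 2.23 (SE 0.32, limma adjusted p = 0.000250), and their means in Sublow cells were 0.16 and 0.193 times those in Low cells. miR-153-3p fell by 3.06 (limma adjusted p = 0.00418), miR-212-3p fell by 2.22 (limma adjusted p = 0.0115) and miR-137-3p fell by 2.0 (limma adjusted p = 0.0319). Both copies of miR-129-5p missed the threshold, with differences of -1.67 (limma adjusted p = 0.0790) and -1.63 (limma adjusted p = 0.0841), and passed it without Non-sorted replicate 1 or 2. The call of miR-137-3p was lost when High replicate 1 or 2, Low replicate 1, or Sublow replicate 2 or 3 was left out (limma adjusted p up to 0.113), and when the miR-295-3p libraries were left out (limma adjusted p = 0.0948). For all 7 the Sublow libraries lay wholly below the Low libraries, as did 34.9% of all tested entries. The median difference was -2.22 over the 7 and -0.43 over all tested entries. Lane L005 held 2 Sublow libraries and 1 Low library, and within it the differences ran from -2.94 for miR-132-3p to -1.35 for miR-129-5p. Of the 5 calls 3 were left with the lane as a term, which ended those of miR-212-3p and miR-153-3p, and 3 with median-ratio rescaling or a pseudocount of 0.1, either of which ended those of miR-212-3p and miR-137-3p.

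**Figure D2:**
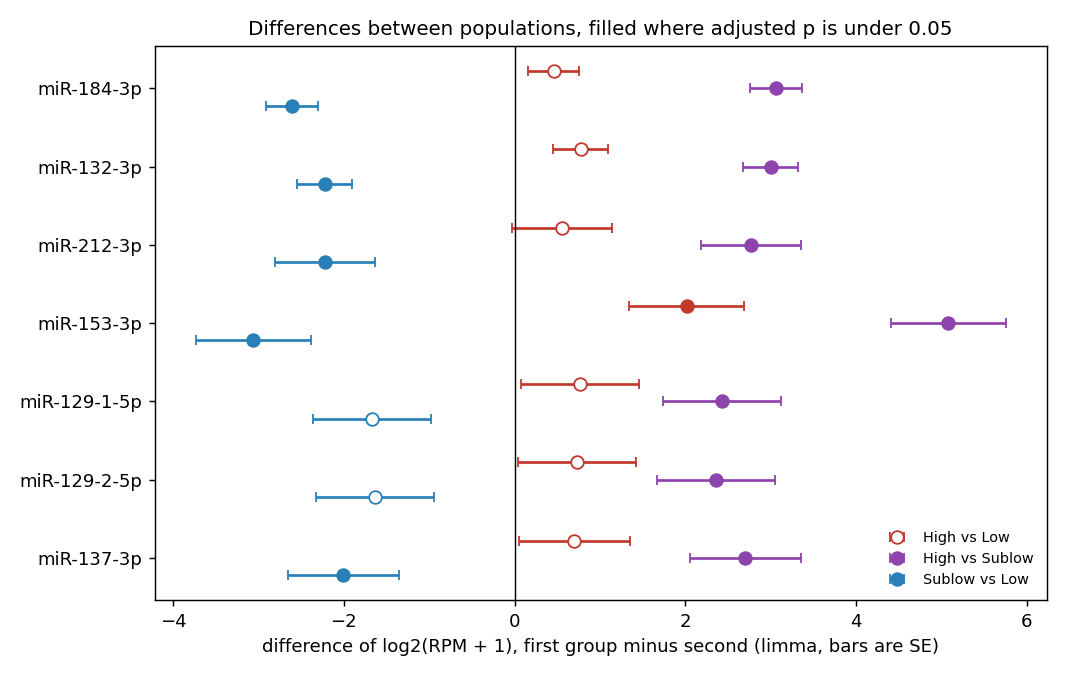
Differences of log2(RPM + 1) between populations from limma, first group minus second, with SE as bars and filled points where the adjusted p is under 0.05. The High vs Sublow points lie between 2.36 and 5.08 and are all filled, the Sublow vs Low points lie below 0, and of the High vs Low points only miR-153-3p, at 2.02, is filled.

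High against Sublow cells gave a positive difference for all 7 entries, each past the threshold, where 28.1% of all tested entries were called higher. The largest was miR-153-3p, at 5.08 (SE 0.67, limma adjusted p = 6.27e-05). miR-184-3p was higher by 3.06 (SE 0.30, limma adjusted p = 5.64e-06), with a mean in High cells 8.57 times that in Sublow cells, and miR-132-3p by 3.0 (SE 0.32, limma adjusted p = 1.06e-05), with a mean 8.45 times as high. The remaining differences were 2.77 for miR-212-3p, 2.70 for miR-137-3p, 2.43 for miR-129-1-5p and 2.36 for miR-129-2-5p, with limma adjusted p from 0.00200 to 0.0137. All 7 lay wholly above Sublow, as did 31.6% of all tested entries, and the median difference was 2.77 against 0.07 over all tested entries. These 2 groups share no lane code. With the lane as a term, which rests on the other groups to link the lanes, 4 of the 7 remained called. High replicate 3, alone in its lane code, then adds nothing to the difference.

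Negative cells were lower than Low cells in all 7 entries, where 49.5% of all tested entries were called lower. miR-184-3p differed by -7.49 (limma adjusted p = 2.45e-09) and miR-132-3p by -4.29 (limma adjusted p = 2.30e-07), and the other entries, listed at 0 in every Negative library, had limma adjusted p from 0.000121 to 0.000808. In lane L005, with 1 library of each group, the difference was -4.97 for miR-132-3p and -7.09 for miR-184-3p. Between Negative and Sublow cells 5 of the 7 were lower, where 26.9% of all tested entries were: miR-184-3p fell by 4.88 (limma adjusted p = 3.91e-07), miR-132-3p fell by 2.06 (limma adjusted p = 0.000385), and the others were both copies of miR-129-5p and, at the edge of the threshold, miR-212-3p (limma adjusted p = 0.0499). The call of miR-212-3p was lost without any one of 10 libraries (every Sublow library but replicate 3, every Negative and Low library, High replicates 1 and 2), with limma adjusted p up to 0.144. It was also lost with the replicate number as a block (limma adjusted p = 0.0581), with the lane as a term (limma adjusted p = 0.0638), with either wider filter, with median-ratio rescaling or quantile normalization, and with a pseudocount of 10, which left 2 of the 5 calls. miR-153-3p (limma adjusted p = 0.179) and miR-137-3p (limma adjusted p = 0.151) did not pass, and each passed without Sublow replicate 2, which lists both at 0. The difference of miR-132-3p was -2.04 within lane L005 and -2.16 within lane L006. For the entries at 0, the depth of the Negative libraries sets how far below the other groups they lie, and no fold change can be given.

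High cells were above Negative cells in all 7 entries, where 43.9% of all tested entries were called higher, by 7.94 for miR-184-3p (limma adjusted p = 5.20e-10) and 5.06 for miR-132-3p (limma adjusted p = 4.77e-08). They were also above Non-sorted cells in all 7, where 36.2% of all tested entries were called higher. The means of miR-184-3p and miR-132-3p in High cells were 15.1 and 10.4 times those in Non-sorted cells, with differences of 3.90 (limma adjusted p = 1.85e-06) and 3.35 (limma adjusted p = 9.95e-06). Neither pair of groups shares a lane code. With the lane as a term all 7 stayed called against Negative cells and 3 against Non-sorted cells, where miR-212-3p, miR-153-3p and both copies of miR-129-5p lost the call. Without the 7 libraries that list miR-295-3p, 1 member was called in High vs Low, 6 in Sublow vs Low and 7 in High vs Sublow, where 126, 181 and 245 of 487 tested entries were called in either direction. Only 1 Negative library and no Non-sorted library was left. With that Negative library assumed to vary like those of the other groups, 7 members were called in Negative vs Low, 5 in Negative vs Sublow and 7 in High vs Negative, where 286, 129 and 265 of the 487 entries were called. The 6 summed to 2.93 and 3.46 RPM in the 2 Negative libraries that list miR-295-3p and to 4.0 RPM in the one that does not.

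Over all tested entries, the difference of an entry shifted under median-ratio rescaling by a median of 0.84 in Negative vs Low, 0.46 in Negative vs Sublow, 0.39 in Sublow vs Low, 0.32 in High vs Low, -0.07 in High vs Sublow, -0.52 in High vs Negative and -0.44 in High vs Non-sorted cells on the log2 scale. The median difference itself, over all tested entries, was 0.00 after rescaling against -0.37 before it in Negative vs Sublow, -0.08 against -0.90 in Negative vs Low, 0.03 against 0.07 in High vs Sublow, and 0.19 against -0.11 in High vs Low. The rescaling centres the entries listed in every library, so a median near 0 is favoured by the method itself. No member changed direction in any comparison under this or under quantile normalization.

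The members were then set against miR-375-3p, a miRNA of endocrine cells that averaged 123490 RPM in High, 837 RPM in Negative, 15413 RPM in Sublow and 58075 RPM in Low libraries. These ratios within a library do not depend on its total, and they were chosen after the values were seen. Per 1000 of miR-375-3p, miR-184-3p came to 2.20 to 2.84 in High, 0 to 0.83 in Negative, 1.85 to 2.85 in Sublow, 3.67 to 4.21 in Low, and 1.85 and 2.11 in Non-sorted libraries. In the Negative libraries at 0, the listing limits were 1.99 and 2.10 RPM, against 657 and 724 RPM of miR-375-3p. A ratio of 0 there does not place them below the High or Sublow libraries. The High and Sublow libraries overlapped and both lay below the Low libraries. The mean ratio in High cells was 0.641 times, and in Sublow cells 0.611 times, that in Low cells. Against each, the exact two-sided permutation test gave p = 0.1, the smallest that 3 against 3 libraries allows, and 0.225 adjusted over the 9 comparisons made.

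miR-132-3p stood at 0.89 to 1.38 per 1000 of miR-375-3p in High, 2.71 to 4.78 in Negative, 0.96 to 1.29 in Sublow, 1.09 to 1.77 in Low, and 1.10 and 1.43 in Non-sorted libraries. The Negative libraries were above all others, while the remaining groups overlapped (exact two-sided permutation p = 0.4 for High vs Low and 0.2 for Sublow vs Low). Thus in Negative libraries miR-132-3p was lower than elsewhere in RPM and higher than elsewhere per miR-375-3p. miR-153-3p stood at 0.47 to 0.94 per 1000 of miR-375-3p in High and 0.27 to 0.38 in Low libraries. Per 100 of miR-184-3p, miR-153-3p came to 21.0 to 38.6 in High and 7.49 to 8.97 in Low libraries, a ratio of means of 3.19. Both of these ratios were above in 3 of 3 High libraries (exact two-sided permutation p = 0.1, adjusted 0.225). For miR-129-1-5p, miR-212-3p and miR-137-3p per miR-375-3p, the High and Low libraries overlapped (exact two-sided permutation p from 0.4 to 0.7).

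**Figure D3:**
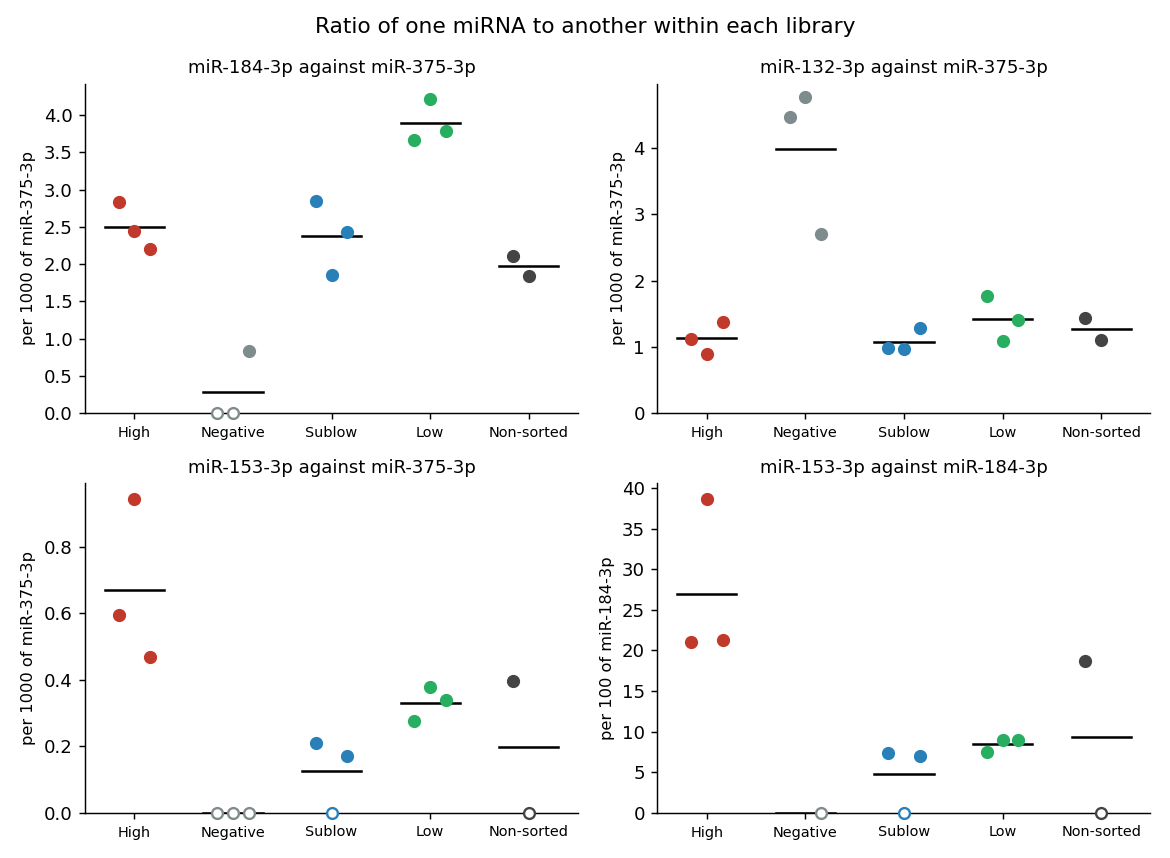
Ratio of one miRNA to another within each library. Points are libraries, and open points have a numerator listed at 0, which is under its listing limit and not a ratio of 0. Bars are group means with 0 entered for those. miR-184-3p per 1000 of miR-375-3p is highest in the 3 Low libraries (3.67 to 4.21), miR-132-3p in the 3 Negative libraries (2.71 to 4.78), and miR-153-3p per 100 of miR-184-3p in the 3 High libraries (21.0 to 38.6).

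In High and Low cells most RPM of each member's arm lay at the annotated start, least so for miR-137-3p. The table separates entries whose start is shifted, and 14 shifted entries belong to the members' own arms, none of them listed in a Negative library and none abundant enough to be tested. The annotated start held 97.7% of the arm's mean RPM in High and 97.4% in Low cells for miR-184-3p, 94.7% in High and 95.4% in Low cells for miR-132-3p, and 96.1% in High and 100% in Low cells for miR-153-3p. For miR-212-3p it held 98.8% in High, 79.5% in Sublow and 100% in Low cells, on mean levels of 2.22 RPM at the annotated start and 2.79 RPM for all forms in Sublow cells. For miR-137-3p it held 68.6% in High, 70.1% in Sublow, 74.6% in Low and 0% in Non-sorted cells. In Non-sorted replicate 1 the form that starts 1 base upstream was listed at 2.27 RPM and the annotated form at 0, the 1 library in which a shifted form of a member exceeded the annotated one. The form of miR-137-3p that starts 1 base downstream had 2.38, 8.71 and 0 RPM in High libraries and 3.54, 3.72 and 0 RPM in Low libraries. It reads AUUGCUU in the seed positions in place of UAUUGCU. The 0 in High replicate 3 stands under a listing limit of 5.55 RPM, so the share of shifted forms is itself limited by depth.

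For miR-137 both arms of the hairpin were listed in every High and Low library. The hairpin is shown with its 2 arms in capitals, the 5p arm first.
Mir137: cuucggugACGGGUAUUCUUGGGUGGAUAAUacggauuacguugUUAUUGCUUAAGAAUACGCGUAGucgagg

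The miR-137-5p arm had 11.17, 16.0 and 18.0 RPM in High libraries, 0 in all 3 Negative libraries, 0.98, 0 and 0 RPM in Sublow libraries, 2.76, 4.46 and 7.73 RPM in Low libraries, and 0 in both Non-sorted libraries. The High libraries lay wholly above the Low libraries, unlike those of miR-137-3p, with a difference of 1.48 (SE 0.53, limma adjusted p = 0.0592) that missed the threshold. It was higher in High than in Sublow cells by 3.65 (limma adjusted p = 0.000141). The 5p arm stood at 0.62, 1.02 and 1.55 times the 3p arm in High libraries and at 0.15, 0.90 and 1.09 times in Low libraries, and the groups overlapped. Of the 12 entries for opposite arms, 10 were listed in at least 1 library and none in a Negative library. The other tested one was a shifted form of miR-153-5p, at 16.1, 17.4 and 7.93 RPM in High and 15.6, 6.69 and 7.34 RPM in Low libraries. These overlapped (difference 0.47, limma adjusted p = 0.688), unlike those of miR-153-3p, and the difference between the arms was not tested. Another shifted form of miR-153-5p, too low to be tested, had 8.42, 11.49 and 0 RPM in High and 0, 0 and 1.67 RPM in Low libraries. Over all its forms miR-153-5p averaged 21.1 RPM in High and 10.4 RPM in Low libraries. miR-132-5p was listed at 0 in every library at its annotated start.

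Other miRNAs known from neurons were in part ordered like the members and in part not. Of a list of 16, 10 were matched in the table, 7 of these were listed in at least 1 library and 5 were tested, of which 4 differed among the sorted populations (miR-127-3p, miR-128-3p, miR-218-5p and miR-326-3p), against 72.3% of all tested entries. miR-124-3p, a hallmark miRNA of neurons, was not matched in the table, miR-9-5p was listed in 1 library only (Sublow replicate 1), and miR-138-5p and 2 others were listed at 0 in every library. miR-127-3p, of the imprinted Dlk1-Dio3 region, averaged 254 RPM in High, 33.2 RPM in Negative, 38.2 RPM in Sublow, 83.2 RPM in Low and 55.7 RPM in Non-sorted libraries. It was higher in High than in Sublow cells by 3.06 (SE 0.98, limma adjusted p = 0.0209), while High vs Low did not pass (1.61, limma adjusted p = 0.250). miR-128-3p averaged 92.8 RPM in High, 56.7 RPM in Negative, 99.7 RPM in Sublow, 97.5 RPM in Low and 61.0 RPM in Non-sorted libraries. High and Low cells differed in it by -0.07 (SE 0.17, limma adjusted p = 0.806). miR-218-5p ran against the members, with means of 17.6 RPM in High and 54.0 RPM in Low libraries (difference -1.52, limma adjusted p = 0.00236). In High vs Low 1 of the 5 tested was higher, miR-326-3p, where 7.99% of all tested entries were, and 1 was lower, miR-218-5p, where 20.1% were. miR-218-5p was also the 1 that was lower in Sublow than in Low cells, where 24.3% of all tested entries were. Like the members, miR-127-3p, miR-326-3p and miR-433-3p had means ordered from highest to lowest as High, Low, Sublow and Negative. miR-326-3p and miR-433-3p are named here after their values were seen. Not every step of this order was separated. For miR-127-3p, Sublow vs Low (-1.45, SE 0.98, limma adjusted p = 0.274) and Negative vs Sublow (-0.76, limma adjusted p = 0.596) did not pass. The same held for miR-326-3p (-0.03, SE 0.29, limma adjusted p = 0.943, and -0.30, limma adjusted p = 0.487). miR-326-3p averaged 27.6 RPM in High, 11.2 RPM in Negative, 13.8 RPM in Sublow and 14.4 RPM in Low libraries (High vs Low 0.91, SE 0.29, limma adjusted p = 0.0362). miR-433-3p, too low to be tested, averaged 11.6 RPM in High, 2.90 RPM in Sublow and 6.29 RPM in Low libraries and was listed at 0 in all 3 Negative libraries.

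**Figure D4:**
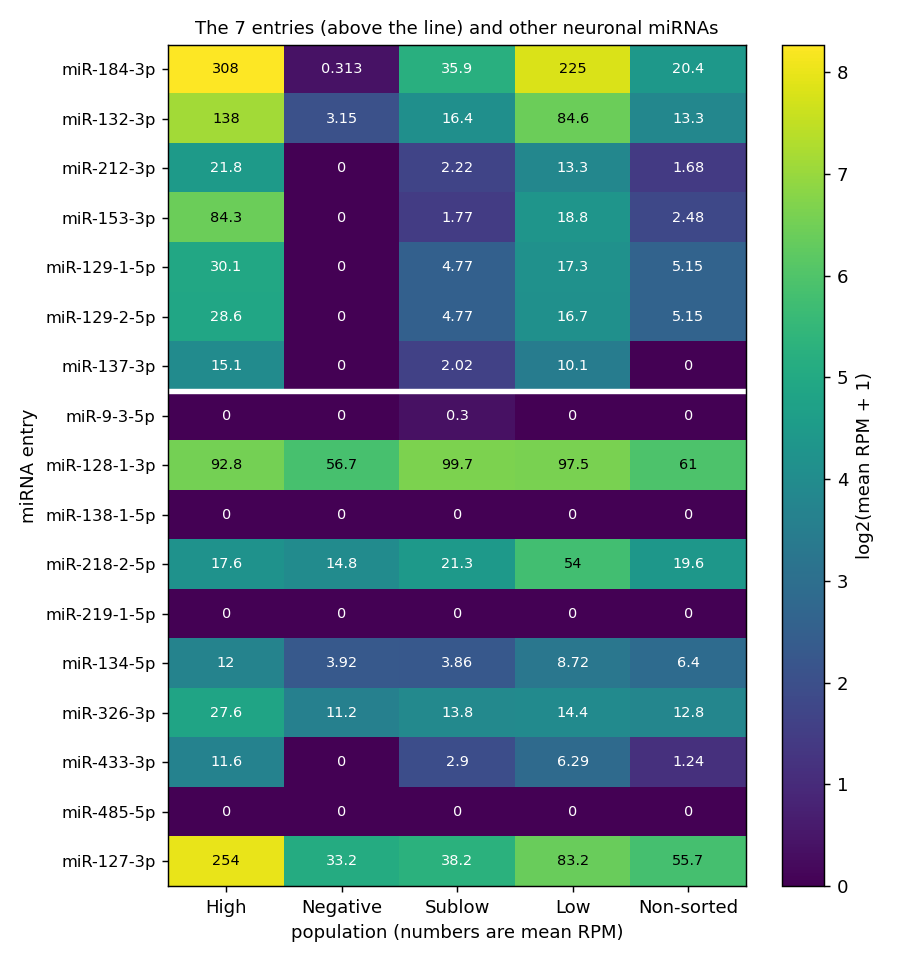
Mean RPM in each population, printed in the cells and coloured as log2(mean RPM + 1), for the 7 entries above the white line and the 10 matched miRNAs of the list of other neuronal miRNAs below it. The 7 entries fall to 3.15 RPM or less in Negative cells, whereas miR-128-1-3p stays between 56.7 and 99.7 RPM in all 5 groups and 3 rows are 0 throughout.

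The list of endocrine and sensory miRNAs (miR-375, the miR-7 family and the cluster of miR-183, miR-96 and miR-182) was read for the same contrasts. Of its 7 miRNAs 6 were tested, and all 6 were lower in Sublow than in Low cells and higher in High than in Sublow cells, where 24.3% and 28.1% of all tested entries were called in those directions. In High vs Low 3 of the 6 were higher, namely miR-183-5p, miR-182-5p and miR-375-3p, against 7.99% of all tested entries. The miRNA of the list that was not tested, miR-96-5p, was listed in 7 libraries. It averaged 1.42 RPM in High and 3.73 RPM in Low libraries, close to the listing limits. The mean level of miR-183-5p was 3387 ± 94 RPM in High and 1193 ± 91.8 RPM in Low libraries (SD, n = 3 each). That of miR-182-5p was 36206 ± 3107 RPM in High and 13456 ± 976 RPM in Low libraries. The 3 tested miRNAs of the miR-7 family did not pass in High vs Low. miR-7a-5p averaged 30279 ± 5906 RPM in High and 25905 ± 674 RPM in Low libraries, miR-7b-5p 9772 ± 2021 RPM in High and 8107 ± 822 RPM in Low libraries, and miR-7a-2-3p 455 ± 34.3 RPM in High and 282 ± 91 RPM in Low libraries.

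By Pearson's r of log2(RPM + 1) over the 14 libraries, among 245 other annotated-start entries, the nearest to miR-184-3p were miR-7a-2-3p (0.995), miR-375-3p (0.994) and miR-7b-5p (0.992). miR-132-3p was nearest to miR-92b-3p (0.990), let-7e-5p (0.990) and miR-125a-5p (0.988), miR-153-3p to miR-340-5p (0.970), miR-30b-5p (0.968) and miR-92b-5p (0.939), and miR-129-1-5p to miR-99b-3p (0.982), miR-7a-1-5p (0.966) and miR-598-3p (0.956). miR-212-3p was nearest to miR-26a-2-5p (0.956) and miR-137-3p to the same entry (0.955). Among the 6 members themselves, r over the 15 pairs was 0.81 to 0.96, with a median of 0.91. The points share library, depth and group, so r takes in the separation of the groups as well as any likeness within them.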

How the data were processed

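The authors deposited 1 table of RPM values for 2030 miRNA entries in 14 small RNA libraries, made with a TriLink CleanTag kit per the labels' protocols. The columns sum to 1000000, per the deposited values, and the build is mm9 per the submitters' processing notes; aligner and counter: not given in the sources used here. A signed suffix was read as a shifted start, positive downstream, because miR-1843-5p at +1 equals miR-1843b-5p, which starts 1 base downstream, in 12 of 14 libraries. Estimated depth, with the smallest listed value taken as about 10 reads, was 1.89 to 16.4 M reads (median 5.01). Of the low values, 71.6 to 84.8 percent were whole reads within 0.1 read, so no count model was used. Library values were analysed as log2(RPM + 1) for 588 entries (275 at the annotated start) with limma 3.58.1 in R 4.3.3, with an empirical Bayes trend, 5 groups in 1 model, two-sided tests and Benjamini-Hochberg adjustment at 0.05. Ratios used exact permutation tests in scipy 1.17.1, and figures matplotlib 3.10.9. The procedure was tested on simulated data.

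Named are all members and some, not all, of their other arms and shifted forms. From the lists, those named are miRNAs that differed among sorted populations with a mean of at least 100 RPM in some group. To these were added miR-124-3p, miR-9-5p, miR-128-3p, miR-138-5p and miR-218-5p whatever their values. The markers of other cell types, miR-295-3p, miR-96-5p, miR-326-3p and miR-433-3p fall outside these rules and were named after their values were seen. For likeness, the 3 entries of highest r were taken. The members and lists were chosen with earlier results of these data known. Replicate numbers share a code in the labels. Same-numbered libraries deviated together (r over 0.1 in every pair) in High vs Sublow (0.58, 0.60 and 0.37) and Sublow vs Low (0.39, 0.71 and 0.63). This is a hint from the data, since the labels do not say what the code marks. Negative replicate 1, which lists miR-295-3p, had r of 0.48, 0.61 and 0.71 with replicate 2 of High, Low and Sublow, which also list it. With replicate 1 of these groups, which do not, r was -0.23, -0.21 and -0.35. The part of that split in the hint was not tested. Alternatives were other pseudocounts (0.1 and 10), filters and scalings, a replicate block, a lane term, annotated-start entries only, and leaving out each library. The lane term took the libraries labelled Combo, code L000, as the same lane, which the labels do not state. It also takes up High replicate 3 in full, the only library of its code, so lost calls may reflect fewer informative libraries.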

Additional observations from a re-analysis of the deposited data

How the results depend on the processing

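No member reversed its direction in any of 1337 alternative values; 1262 kept their side of the threshold, 61 lost the call and 14 gained it, and the cause was not tested. In High vs Low the members called, 1 as reported, were 0 with a pseudocount of 0.1, with entries listed above 0 in at least 3 libraries, without a filter and with a lane term, 2 with a pseudocount of 10 or median-ratio rescaling, and 0 to 1 when a library was left out. In Sublow vs Low, 5 as reported, they were 3 with a pseudocount of 0.1, median-ratio rescaling or a lane term. In Negative vs Sublow, 5 as reported, they were 2 with a pseudocount of 10. With a lane term they were 4 in High vs Sublow and 3 in High vs Non-sorted, 7 as reported in each. Of all entries the lane term called 130 in Sublow vs Low (204 as reported), 159 in High vs Sublow (297), 239 in High vs Negative (390) and 157 in High vs Non-sorted (339). With annotated-start entries only, fewer were tested and 92 were called in High vs Low, 105 in Sublow vs Low, 176 in Negative vs Low, 108 in Negative vs Sublow, 149 in High vs Sublow, 168 in High vs Negative, 150 in High vs Non-sorted and 191 among the sorted populations. Leaving out the libraries that list miR-295-3p, chosen after seeing the data, left 1 Negative library and 129 entries called in Negative vs Sublow (209). Same-numbered libraries did not deviate together in every pair in High vs Low (lowest r 0.077), High vs Negative (-0.23), Negative vs Low (-0.21) and Negative vs Sublow (-0.35), where 2 to 4 of 6 libraries correlated best with their own number. The replicate block left 4 members called in Negative vs Sublow, since miR-212-3p had an adjusted p of 0.0581 in limma, and changed no other call. The split of calls moved with scaling: 28.5% of calls were higher in High vs Low as reported and 53.6% after median-ratio rescaling, 29.9% and 55.8% in Sublow vs Low, 25.0% and 50.9% in Negative vs Low, 24.4% and 52.4% in Negative vs Sublow, 66.2% and 52.9% in High vs Negative, and 62.8% and 50.8% in High vs Non-sorted. A more even split is favoured by this rescaling itself, which centres the entries listed in every library. Depth limits every value near 10 reads.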
